A study of Mus musculus with 4 samples.

Results

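The 10 genes described here are 4 fibroblast growth factor (FGF) receptors (Fgfr1, Fgfr2, Fgfr3 and Fgfr4), 2 ligands (Fgf2 and Fgf7) and 4 feedback inhibitors of the signal (Spry1, Spry2, Spry4 and Dusp6). They were taken by symbol from a table of 54446 gene rows, in which each symbol had 1 row. The samples were cultured muscle stem cells, known as satellite cells, isolated from the hindlimb of C57BL/6 mice and grown in F10 medium with 10% HS. Knockdown cells (n = 2) received an siRNA that targets the non-coding RNA LncMyoD and control cells (n = 2) received control siRNA, and all were harvested 48 h later. Group names rest on titles, descriptions and treatment tags, because the treatment text of the control cells, like that of the knockdown cells, has LncMyoD as the target. LncMyoD itself was not analysed here, since 0 rows carried its name, and so the knockdown was not checked. The labels give no animal age and do not say whether replicates were separate cultures or animals, and p-values then reflect sample-to-sample spread that may be purely technical.

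FGFs are secreted ligands that bind receptor tyrosine kinases on the cell surface together with heparan sulphate chains. An active receptor signals through the adaptor FRS2 and the Ras, Raf, MEK and ERK cascade. ERK activity in turn induces Sprouty proteins, which dampen the signal upstream of ERK, and DUSP6, a phosphatase that inactivates ERK itself. In satellite cells FGF2 is known as a mitogen that delays differentiation, Spry1 is linked with quiescence, and Fgfr1 and Fgfr4 are known as the receptors of the muscle lineage.

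The upstream sequences of the 3 genes with the highest levels among the 10, Spry1, Fgfr4 and Dusp6, are shown to give the start-site context of an inhibitor, a receptor and a phosphatase that these cells transcribed. RefSeq windows on GRCm38.p6 matched 8 of the 10 symbols. The stretches lie on the plus strand at chr3:37639697-37639946 for Spry1, chr13:55152568-55152639 for Fgfr4 and chr10:99262981-99263230 for Dusp6. Each is read 5′ to 3′ and ends before the first GENCODE exon of its gene, which leaves 72 bases for Fgfr4 and 250 for the others. Capitals mark matches to 4 motifs searched on both strands. These were CANNTG, the E-box bound by MyoD-type factors, then CATTCC, the M-CAT motif of TEAD factors, then CCGGAA, an ETS core, and TGACG, the core of the cyclic AMP response element.
Spry1: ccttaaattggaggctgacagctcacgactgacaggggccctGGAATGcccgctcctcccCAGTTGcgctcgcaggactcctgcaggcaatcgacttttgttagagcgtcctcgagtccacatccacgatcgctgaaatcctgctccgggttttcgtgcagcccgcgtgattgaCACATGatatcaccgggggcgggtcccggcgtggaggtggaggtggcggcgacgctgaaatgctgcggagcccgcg
Fgfr4: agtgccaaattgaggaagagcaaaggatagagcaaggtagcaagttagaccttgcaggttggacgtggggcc
Dusp6: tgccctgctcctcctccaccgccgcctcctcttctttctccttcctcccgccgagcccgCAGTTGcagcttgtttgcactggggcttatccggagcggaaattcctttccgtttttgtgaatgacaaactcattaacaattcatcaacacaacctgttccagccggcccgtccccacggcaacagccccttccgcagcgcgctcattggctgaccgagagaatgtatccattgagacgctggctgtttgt

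The Spry1 stretch held 2 E-box matches, starting 190 and 76 bases before the RefSeq start, and 1 M-CAT match on the opposite strand, starting 208 bases before it. The Dusp6 stretch held 1 E-box match, 191 bases before the start. None of the 4 motifs was in the 72 bases of Fgfr4. An E-box match was present in 66.2% of all 32851 windows of 250 bases and an M-CAT match in 12.6%, and in 72 bases the shares were 27.5% and 3.79%. The matches describe letters only, and binding was not measured.

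The libraries were close in depth. The low values of single-exon genes gave 5.50 to 6.16 gigabases assigned per library, so that 1 FPKM, a level scaled to transcript length and library size, stood for 36.7 to 41.1 reads of 150 nt per kilobase. Of the markers of satellite cells and myoblasts, 8 of 10 had a mean of at least 1 FPKM, and the 2 below it were Chodl (0.198 to 0.780 FPKM) and the satellite cell factor Pax7 (0.625 to 1.40 FPKM). The highest was Myog, a factor of differentiating myoblasts, with knockdown levels of 3406 and 2793 FPKM beside control levels of 4196 and 3931 FPKM. The list summed to 4050 to 4441 FPKM in knockdown and 5165 to 5445 in control, and without Myog to 1035 and 1257 in knockdown and 1249 and 1234 in control, where the groups overlapped. Markers of other hindlimb cells were mixed. Acta2, of smooth muscle, was the highest, with 2670 and 2576 FPKM in knockdown and 3165 and 3021 FPKM in control, and Islr, of fibroblasts, was at 42.1 and 30.6 FPKM in knockdown and 51.2 and 58.5 FPKM in control. Each was lower in both knockdown libraries (adjusted p 0.607 for both in limma). Pmp22, of Schwann cells, was at 18.4 FPKM in knockdown replicate 1 and 42.3 to 46.8 FPKM elsewhere. Scx, of tenocytes, had 12.6 to 18.6 FPKM, Eng, of endothelium, 4.16 to 6.39 FPKM and Cd14, of macrophages, 1.05 to 2.87 FPKM, with overlap between groups. Without Acta2, the smooth muscle and pericyte list summed to 3.16 and 3.70 FPKM in knockdown and 5.35 and 4.74 FPKM in control. The Schwann cell list summed to 0.0113 to 0.864 FPKM without Pmp22. Without their highest gene, the tenocyte list gave 1.98 to 3.35 FPKM, the endothelial list 1.14 to 2.74 and the macrophage list 0.526 to 1.37. From the same lists Tcf21, Kcnj8, Kdr, Ptprc, Adgre1, Itgam, S100b, Tnmd and Thbs4 were listed at 0 in every library. The part of other cells in the values below was not tested.

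Levels of the 10 genes fell into 3 tiers on the FPKM scale, which is per length. Spry1, Fgfr4, Dusp6 and Fgfr1 lay between 9.47 and 27.2 FPKM in every library. Spry4 and Spry2 lay between 0.798 and 2.00 FPKM. Fgf7, Fgfr3, Fgf2 and Fgfr2 stayed at or under 0.616 FPKM. In order of mean level, the ranges over the 4 libraries overlapped between Spry1 and Fgfr4, between Fgfr4 and Dusp6, between Spry4 and Spry2, and between each neighbouring pair of the lowest 4 genes. They did not overlap between Dusp6 and Fgfr1, between Fgfr1 and Spry4, or between Spry2 and Fgf7. The receptors Fgfr4 and Fgfr1 and the inhibitors Spry1 and Dusp6 had levels above 60.1% to 77.0% of the 10900 genes tested, while the ligands Fgf2 and Fgf7 did not reach the filter.

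**Figure D1:**
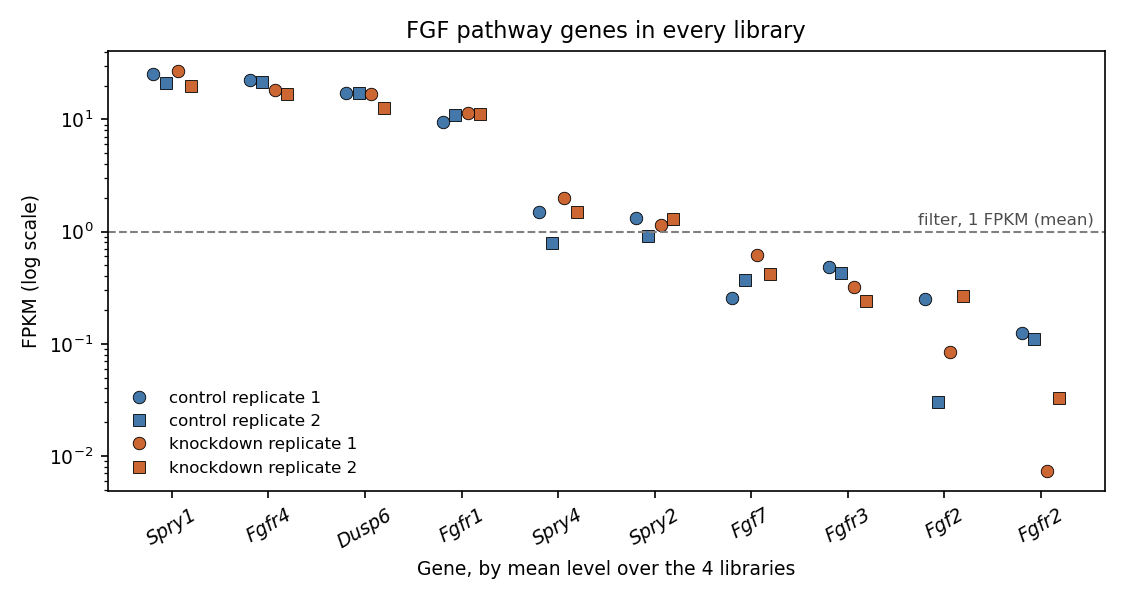
FPKM of each gene (log axis) in the 2 control libraries (blue) and the 2 knockdown libraries (orange), 1 point per library, with genes ordered by mean level and a dashed line at 1 FPKM, the mean needed for testing. The first 4 genes lie between 9.47 and 27.2 FPKM, Spry4 and Spry2 near the line, and the remaining 4 below it.

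The comparison asked which of these genes differed between knockdown and control cells. Testing required an average of 1 FPKM or more across libraries, and 6 of the 10 genes reached it: Fgfr1, Fgfr4, Spry1, Spry2, Spry4 and Dusp6. Of these 6, 0 passed an adjusted p of 0.05 in limma, where 0.0550% of all genes tested did, and 0 had an unadjusted p under 0.05, where 7.08% of all genes did. The adjusted p-values of the 6 ran from 0.698 to 0.999. For 2 of the 6 genes the lower knockdown library exceeded the higher control (22.1% of all genes tested) and for 2 the order was the opposite (16.3% of all genes tested). The median log2 difference of the 6 was 0.04, beside 0.03 for all genes tested.

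Among the receptors, Fgfr4 (chromosome 13, 55152640 to 55168759, plus strand, GRCm38) had the highest level. Fgfr4 codes for a receptor tyrosine kinase known from embryonic and regenerating muscle. It stood at 18.2 and 16.9 FPKM in the knockdown libraries and 22.4 and 21.5 FPKM in the controls. Each knockdown library was lower than either control, and the group ranges did not overlap. The means were 17.6 ± 0.965 against 21.9 ± 0.608 FPKM (SD, n = 2), a ratio of 0.800. The log2 difference was -0.31 ± 0.13 (SE), with a 95% interval of -0.62 to 0.0032, an unadjusted p of 0.0517 and an adjusted p of 0.698 in limma. It had the lowest p of the 6 genes tested, and it did not pass. Myog, a marker of differentiating cells, was also lower in both knockdown libraries than in both controls, as given above, and its part in the Fgfr4 values was not tested. In bulk RNA, fewer cells of a type and less RNA per cell cannot be told apart.

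Fgfr1 (chromosome 8, 25513654 to 25575718, plus strand) codes for the receptor that binds FGF2 and is widely expressed in mesenchymal cells. Its levels were 11.4 and 11.2 FPKM in knockdown and 9.47 and 10.9 FPKM in control. The knockdown libraries lay just above the higher control, and the control libraries differed more from each other than the groups did. The log2 difference was 0.14 ± 0.15 (SE), with a 95% interval of -0.24 to 0.51 and an adjusted p of 0.879 in limma. Of its exonic bases, 1.66% are shared with the antisense gene Gm16159, and the strand setting is unknown. Gm16159 had 0.555 to 1.40 FPKM, and with both rows summed the log2 difference of Fgfr1 was 0.12 with an adjusted p of 0.904 in limma.

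Fgfr3 and Fgfr2 were far lower and were not tested. Fgfr3 (chromosome 5, 33721674 to 33737068, plus strand), a receptor best known from cartilage, had 0.3197 and 0.242 FPKM in knockdown and 0.488 and 0.426 FPKM in control. Both knockdown values were under both control values, at 9.95 to 19.1 reads per kilobase over the 4 libraries. Fgfr2, best known from epithelia and bone, had 0.00741 and 0.0328 FPKM in knockdown and 0.126 and 0.109 FPKM in control. That is 0.271 and 1.35 reads per kilobase in knockdown and 4.92 and 4.26 in control, so the knockdown values rest on very few reads, and no ratio is given. In the fit without a filter on low values, Fgfr2 had an unadjusted p of 0.0186 and an adjusted p of 0.770, and Fgfr3 had an adjusted p of 0.818. The annotated Fgfr2 gene (chromosome 7, 130162451 to 133123350, minus strand) reaches into Ctbp2 and shares 314 exonic bases with it on the same strand, 3.04% of its own. Ctbp2 had 1.70 to 2.95 FPKM, above Fgfr2 in every library. For Fgfr3, 13.9% of exonic bases are shared with G630022F23Rik on the opposite strand, which had at most 0.0194 FPKM.

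The makeup of the receptor transcripts can be set beside their sum. The 4 receptor genes summed to 29.9 and 28.3 FPKM in knockdown and 32.5 and 32.9 FPKM in control. Fgfr4 made up 61.0% and 59.6% of that sum in knockdown and 68.9% and 65.3% in control. Fgfr1 made up 37.95% and 39.4% in knockdown and 29.2% and 33.1% in control. The groups did not overlap in the sum or in either share, and the difference in the Fgfr4 share, -6.84 percentage points, exceeded the SDs of 0.954 and 2.55 within the groups (n = 2). With 2 samples against 2, a two-sided exact permutation test cannot give a p below 0.333, and each of these 3 measures gave that value. The 2 shares take up nearly the whole sum, so they nearly mirror each other and are not separate observations. The ratio of Fgfr4 to Fgfr1 was 1.61 and 1.51 in knockdown against 2.36 and 1.98 in control, and this unequal change within a library does not show which of the 2 genes moved. Fgfr3 and Fgfr2 together stayed a small part, with Fgfr3 at 0.856% to 1.503% and Fgfr2 at 0.0247% to 0.388% of the sum.

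**Figure D2:**
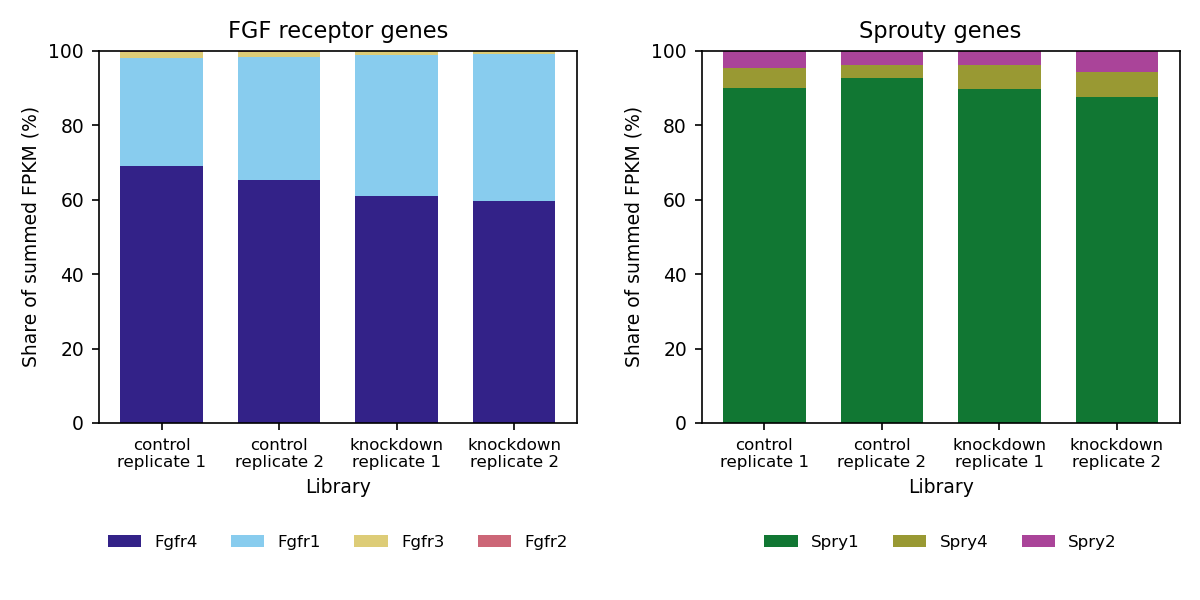
Share of each gene in the summed FPKM of its family (percent, axis from 0) in each library, for the 4 FGF receptor genes (left) and the 3 Sprouty genes (right). Fgfr4 takes 65.3% to 68.9% in control and 59.6% to 61.0% in knockdown, Spry1 takes 87.7% to 92.6% of the Sprouty sum, and Fgfr2 is too small to be seen.

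The ligands were near the limit of detection. Fgf2 (chromosome 3, 37348346 to 37410108, plus strand), the basic FGF that is added to satellite cell cultures as a mitogen, had 0.0838 and 0.269 FPKM in knockdown and 0.250 and 0.0300 FPKM in control. The highest and the lowest value were 8.96-fold apart and fell in different groups, and the groups overlapped. These values correspond to 1.17 to 11.0 reads per kilobase, so they rest on few reads, and no conclusion on Fgf2 is drawn. In the fit without a filter on low values, its log2 difference was 0.05 with an adjusted p of 0.946 in limma. Of its exonic bases, 9.44% are shared with Nudt6, a gene on the opposite strand long known as an FGF antisense transcript, which had 4.20 and 6.77 FPKM in knockdown and 3.82 and 2.83 FPKM in control. Reads of that shared part cannot be assigned to a strand here, and Gm43439, which overlaps Fgf2 by 255 bases, was listed at 0 in every library. With these rows summed, a sum made up mostly of Nudt6, the log2 difference was 0.56 with an adjusted p of 0.717 in limma. Fgf7 (chromosome 2, 126034658 to 126091185, plus strand), a growth factor made by mesenchymal cells for epithelia, had 0.616 and 0.422 FPKM in knockdown and 0.257 and 0.371 FPKM in control. Each knockdown library was above either control, at 10.1 to 22.6 reads per kilobase, and the adjusted p without the filter was 0.818 in limma.

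Markers of the stromal cells of muscle were uneven. Of 11 markers of fibro-adipogenic progenitors and fibroblasts, 7 had a mean under 1 FPKM, among them Tcf21 at 0 in every library and Pdgfra and Lum at 0 in all but control replicate 1. The other 4 lay well above Fgf7, with Islr at 30.6 to 58.5 FPKM, Col3a1 at 23.0 to 29.4, Col1a2 at 16.3 to 17.99 and Col1a1 at 2.18 to 4.70. The list summed to 80.3 to 89.7 FPKM in knockdown and 95.9 to 106 in control. Without Islr the direction turned, with 47.6 and 49.6 FPKM in knockdown and 44.7 and 47.5 FPKM in control. The part of such cells in the Fgf7 values was not tested.

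Among the feedback inhibitors, Spry1 (chromosome 3, 37639947 to 37644598, plus strand) had the highest level of the 10 genes. It stood at 27.2 and 19.9 FPKM in knockdown and 25.4 and 21.3 FPKM in control. The groups overlapped fully, with the highest and the lowest library both in knockdown. The log2 difference was 0.0018 ± 0.18 (SE), with a 95% interval of -0.45 to 0.45 and an adjusted p of 0.999 in limma, so changes larger than 1.37-fold up or to 0.734 of control lie outside the interval on the log2(FPKM + 1) scale. Its sign is not fixed, being negative with median ratio scaling (-0.03) and quantile normalization (-0.02). The antisense row Gm42922 shares 24.4% of the exonic bases of Spry1 and had 0.0143 to 0.326 FPKM.

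Spry4 and Spry2 were present at lower levels. Spry4 (chromosome 18, 38586247 to 38601415, minus strand), a Sprouty induced by FGF in many tissues, had 2.00 and 1.51 FPKM in knockdown and 1.49 and 0.798 FPKM in control. Knockdown replicate 2 lay barely above control replicate 1, and control replicate 2 stood lowest. The log2 difference was 0.37 ± 0.26 (SE), with a 95% interval of -0.26 to 1.01 and an adjusted p of 0.794 in limma. Spry2 (chromosome 14, 105891947 to 105896819, minus strand), the Sprouty that also binds the ubiquitin ligase Cbl, had 1.13 and 1.29 FPKM in knockdown and 1.33 and 0.907 FPKM in control. The groups overlapped, and its log2 difference was 0.07 with a 95% interval of -0.49 to 0.63 and an adjusted p of 0.963 in limma, negative with quantile normalization (-0.0015). Both genes have 1 annotated transcript, and their values correspond to 148 to 349 reads for Spry4 and 73.9 to 111 for Spry2.

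The Sprouty family as a whole was dominated by Spry1. The 3 genes summed to 30.3 and 22.7 FPKM in knockdown and 28.2 and 23.0 FPKM in control, and the groups overlapped. Spry1 made up 89.7% and 87.7% of the sum in knockdown and 90.0% and 92.6% in control. Spry4 made up 6.60% and 6.63% in knockdown and 5.29% and 3.47% in control. Neither of these shares overlapped between groups, that of Spry1 being lower and that of Spry4 higher in knockdown. Each was at the smallest two-sided exact permutation p possible here, 0.333. As parts of 1 sum, the shares are not separate observations.

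Dusp6 (chromosome 10, 99263231 to 99267489, plus strand), the ERK phosphatase, stood at 17.0 and 12.7 FPKM in knockdown and 17.1 and 17.2 FPKM in control. Both knockdown libraries were below both controls, but knockdown replicate 1 sat next to them and only knockdown replicate 2 lay clearly lower. The means were 14.9 ± 3.03 against 17.2 ± 0.0830 FPKM (SD, n = 2), so the difference was smaller than the spread within knockdown. The log2 difference was -0.21 ± 0.17 (SE), with a 95% interval of -0.63 to 0.21 and an adjusted p of 0.823 in limma. It was -0.01 without knockdown replicate 2 and -0.40 without knockdown replicate 1. The ratio of Dusp6 to Spry1 was closer within knockdown than either level was, at 0.626 and 0.639, beside 0.675 and 0.809 in control. Within control this did not hold, as the Dusp6 levels of 17.1 and 17.2 FPKM were closer in relative terms than the ratio.

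**Figure D3:**
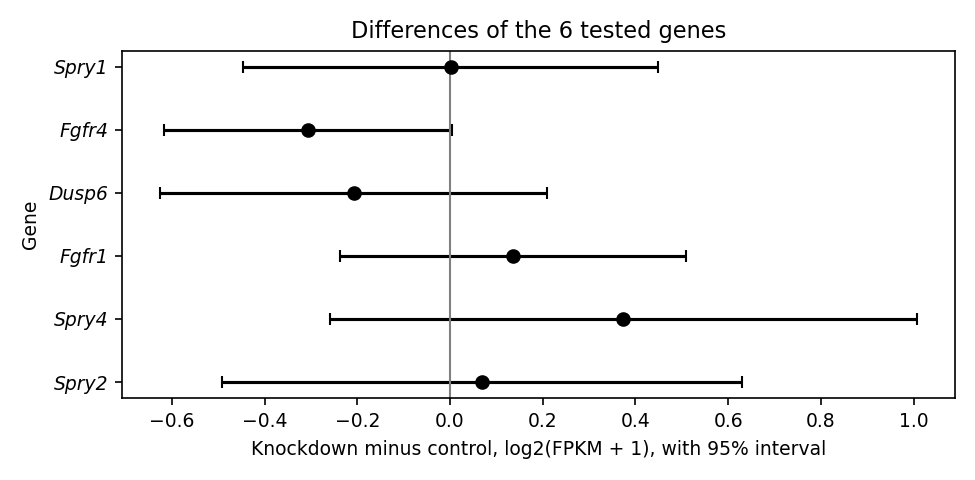
Difference in log2(FPKM + 1), knockdown less control, for the 6 tested genes, with points for the limma estimate and bars for its 95% interval (n = 2 per group). Every interval includes 0, and that of Fgfr4 (-0.62 to 0.0032) lies almost wholly below it.

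The genes most like Fgfr4 over the 4 samples were Chrnd, a subunit of the acetylcholine receptor, Pgm3 and Naxe. Likeness was the Euclidean distance between log2 values centred on each gene's mean, among 6369 other genes averaging 5 FPKM or more. The distances were 0.0241, 0.0300 and 0.0382, beside a median of 0.423. Chrnd had 67.1 and 63.7 FPKM in knockdown and 82.7 and 80.1 FPKM in control, a log2 difference of -0.31 with an adjusted p of 0.627 in limma. As Chrnd was picked for its likeness to Fgfr4, this difference follows from the choice and is no separate evidence.

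The rest of the pathway was described by 7 lists of 131 genes, of which 130 had a row and 83 were tested. Of the 83, 0 passed the adjusted threshold in limma with or without a mean-variance trend, and 9 had an unadjusted p under 0.05, 6 higher and 3 lower. That is 10.8%, where all genes gave 7.08%. Knockdown exceeded control in every pairing of libraries for 26 genes (31.3%, against 22.1% of all genes) and was below it in every pairing for 12 (14.5%, against 16.3%). The median log2 difference was 0.10 over the 83 genes.

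Of the other 20 FGF ligand genes, 8 were listed at 0 in every library, 17 had a mean under 1 FPKM, and 3 were tested with 0 called. Fgf21, a hormone-like FGF that needs beta-Klotho as a coreceptor, was the highest by far, with 213 and 153 FPKM in knockdown and 285 and 274 FPKM in control. Knockdown was lower in both libraries, with a log2 difference of -0.63 and an adjusted p of 0.582 in limma. Without knockdown replicate 1 the difference was -0.87 with an adjusted p of 0.0487, without knockdown replicate 2 it was -0.39 with an adjusted p of 0.305, and without either control the adjusted p was 0.919 or higher in limma. Klb, which codes for beta-Klotho, was listed at 0 in every library. Fgf13, an FGF-like protein that stays inside the cell, had 4.64 and 3.86 FPKM in knockdown and 6.17 and 4.13 FPKM in control (adjusted p 0.873 in limma).

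Coreceptors and binding proteins had 13 of 19 genes tested, with 0 called, 8 positive and 5 negative differences and a median of 0.09, which was -0.04 with a filter at 5 FPKM. Ncam1, an adhesion molecule that can bind FGF receptors, was the highest, with 156 and 142 FPKM in knockdown and 137 and 141 FPKM in control (adjusted p 0.866 in limma). Fgfrl1, a receptor-like protein that binds FGFs and has no kinase domain, had 1.77 and 2.26 FPKM in knockdown and 0.241 and 0.713 FPKM in control. Both knockdown libraries were higher, with a log2 difference of 1.04 ± 0.26 (SE) and an adjusted p of 0.582 in limma. Sdc2, a heparan sulphate proteoglycan, had 28.7 and 26.4 FPKM in knockdown and 41.8 and 36.9 FPKM in control. Both knockdown libraries were lower, with a log2 difference of -0.50 ± 0.12 (SE) and an adjusted p of 0.582 in limma.

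Enzymes that build or trim heparan sulphate had 11 of 16 genes tested, with 0 called, 8 positive and 3 negative differences and a median of 0.16. Ext2, a chain polymerase subunit, had the highest mean over the 4 libraries, at 22.3 to 24.1 FPKM. Glce, the epimerase that makes iduronic acid, had 12.9 and 12.3 FPKM in knockdown and 7.31 and 7.98 FPKM in control. The groups did not overlap, knockdown being higher, with a log2 difference of 0.65 ± 0.15 (SE) and an adjusted p of 0.539 in limma. Hs6st2, a sulphotransferase that was above Ext2 in knockdown and below it in control, had 25.6 and 24.6 FPKM in knockdown and 21.2 and 19.3 FPKM in control (adjusted p 0.698 in limma).

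Inside the cell, adaptors and the ERK cascade had 16 of 23 genes tested, with 0 called, 7 positive and 9 negative differences and a median of -0.04, which was 0.06 without knockdown replicate 1. Map2k1, the kinase MEK1, was the highest, at 73.4 and 74.2 FPKM in knockdown and 83.5 and 75.3 FPKM in control. Rps6ka2, a kinase that ERK activates, had 3.85 and 3.35 FPKM in knockdown and 4.66 and 4.92 FPKM in control (adjusted p 0.745 in limma). The p38 MAP kinase arm had 8 of 10 genes tested, with 0 called, 4 positive and 4 negative differences and a median of 0.04, which was -0.03 with quantile normalization. Its member Tab1, an activator of the kinase TAK1, had 7.48 and 7.66 FPKM in knockdown and 5.67 and 5.78 FPKM in control (adjusted p 0.708 in limma). Map2k3, a kinase of p38, had 28.9 and 37.1 FPKM in knockdown and 40.6 and 34.9 FPKM in control, with overlap.

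The remaining feedback inhibitors had 14 of 21 genes tested, with 0 called, 9 positive and 5 negative differences and a median of 0.09, which was -0.05 with a filter at 5 FPKM. Errfi1, an inhibitor of EGF receptors, was the highest, at 68.9 and 86.2 FPKM in knockdown and 72.9 and 73.8 FPKM in control. Dusp9, an ERK phosphatase related to Dusp6, had 2.03 and 2.61 FPKM in knockdown and 0.638 and 1.59 FPKM in control (adjusted p 0.698 in limma). Spred1, a Sprouty-related inhibitor of Ras signalling, had 2.194 and 2.62 FPKM in knockdown and 1.46 and 1.52 FPKM in control (adjusted p 0.708 in limma). Both were higher in both knockdown libraries, as Spry4 was and Dusp6 was not.

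The list of ERK target genes also holds the ternary complex factors Elk1, Elk3 and Elk4, whose own RNA need not follow ERK activity. It had 18 of 22 genes tested, with 0 called, 13 positive and 5 negative differences and a median of 0.16. Junb, a subunit of the AP-1 factor, was the highest, at 81.0 and 119 FPKM in knockdown and 101 and 104 FPKM in control. Plaur, the urokinase receptor, had 33.2 and 33.9 FPKM in knockdown and 20.6 and 22.5 FPKM in control. Plaur was higher in each knockdown library than in either control, with a log2 difference of 0.62 ± 0.12 (SE) and an adjusted p of 0.523 in limma. Elk3, of the ternary complex factors, was at 1.76 and 2.09 FPKM in control and 4.13 and 4.83 FPKM in knockdown, with a log2 difference of 0.91 ± 0.20 (SE) and an adjusted p of 0.523 in limma. Egr1, an immediate early factor chosen here after its values were seen, was lower in both knockdown libraries, with 52.1 and 54.0 FPKM in knockdown and 68.7 and 83.6 FPKM in control (adjusted p 0.573 in limma). Egr2, of the same family and also chosen after its values were seen, was higher in both knockdown libraries, with 4.61 and 4.45 FPKM in knockdown and 1.82 and 2.66 FPKM in control (adjusted p 0.607 in limma).

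**Figure D4:**
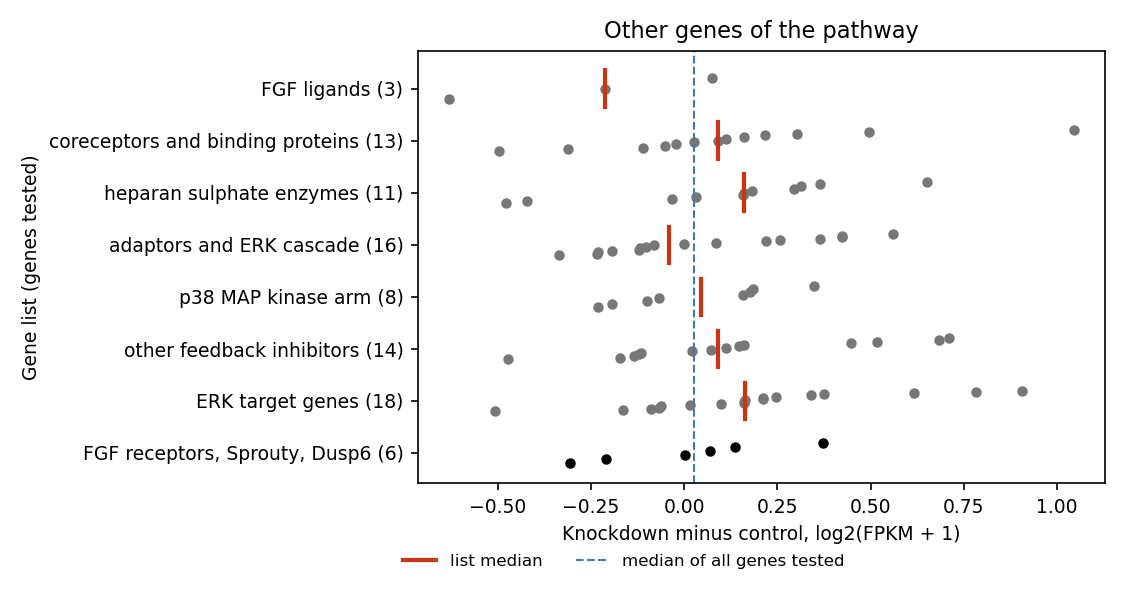
Difference in log2(FPKM + 1), knockdown less control, for each tested gene (points) of the 7 pathway lists and of the 6 tested genes described above (black), with the list medians (red bars) and the median of all genes tested (dashed line, 0.03). List medians run from -0.21 for 3 ligand genes (0.03 without control replicate 1) to 0.16 for ERK target genes and heparan sulphate enzymes, and 0 of these genes passed the adjusted threshold.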

How the data were processed

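Polyadenylated RNA of 4 samples was sequenced as paired reads of 150 nt from SMART-Seq v4 cDNA, per the labels' protocols. Tools listed without roles, per the submitters' processing notes, are StringTie 1.3.3, SAMtools 1.3, HISAT2 2.1.0, Trimmomatic 0.36 and bcl2fastq 2.19, with the build mm10. The annotation release is not given in the sources used here, nor is the strand setting. The deposited values are the authors' FPKM per gene, a unit read from the values, with column sums of 317223 to 322496. Coordinates and overlaps came from GENCODE M21 on GRCm38, where 54409 identifiers matched and 37 did not.

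Depth came from genes with 1 exon and 1 transcript, whose FPKM times length fell on multiples of 1 base (within 0.1 of a step) for 87.2% to 87.7% of values. No whole read counts were recovered, so no count model was used. All 10900 genes averaging 1 FPKM or more were fitted on log2(FPKM + 1) with limma 3.58.1 (R 4.3.3), with a mean-variance trend, two-sided, Benjamini-Hochberg adjusted at 0.05. Differences are knockdown minus control, and this scale understates changes of low genes. The fit was also run on simulated data with independent normal noise for each gene, and the outcome is not given here. Pandas 2.3.3, matplotlib 3.10.9 and numpy 2.4.6 under Python 3.11.15 gave summaries and plots.

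The 10 genes and the lists were chosen with earlier results of these data known. Named by rule were the 10 genes; per pathway list, the called genes (if none, the 2 of lowest p) and the highest in level; the 3 genes nearest to the tested gene with the lowest p; the highest and the absent genes of marker lists; and genes with overlapping exons. A gene named by this rule is not reported here. Alternatives were other pseudocounts (0.1 and 0.5), filters (none, and 5 FPKM), scalings, a replicate block, no trend, summed overlapping rows and leaving out each library.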

Additional observations from a re-analysis of the deposited data

How the results depend on the processing

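Under every alternative run, 0 of the tested genes among the 10 passed the adjusted threshold. Of the pathway genes, 0 passed except without knockdown replicate 1, where 1 did (range 0 to 1 over the libraries left out), which was Fgf21 (-0.87, against -0.39 without knockdown replicate 2). Fgfr4, Dusp6, Fgfr1 and Spry4 kept their sign throughout, with ranges over the libraries left out of -0.36 to -0.25, -0.40 to -0.01, 0.04 to 0.23 and 0.14 to 0.61. Spry1 turned negative with median ratio scaling (-0.026), quantile normalization (-0.021) and its overlapping row summed (-0.0061), and Spry2 with quantile normalization (-0.0015). Leaving out 1 library moved Spry1 from -0.21 to 0.22, Spry2 from -0.076 to 0.21, Errfi1 from -0.088 to 0.23, Ext2 from -0.085 to 0.019, Fgf13 from -0.45 to 0.029 and Junb from -0.33 to 0.21; the lone sample is then assumed to vary like the other group. Medians of the pathway lists also moved with 1 library left out. The ranges were -0.45 to 0.03 for ligands, 0.02 to 0.21 for coreceptors and 0.11 to 0.21 for heparan sulphate enzymes. They were -0.06 to 0.06 for adaptors and the ERK cascade and -0.07 to 0.11 for the p38 arm. Other feedback inhibitors gave 0.03 to 0.14, and ERK targets gave 0.08 (without knockdown replicate 2) to 0.24. A filter at 5 FPKM turned the medians of coreceptors (-0.04), the p38 arm (-0.10) and other feedback inhibitors (-0.05), and the p38 median was also negative with quantile normalization (-0.03) and without the filter (-0.02). The filter at 5 FPKM left fewer genes in each list. The labels do not say whether same-numbered samples were paired. Their deviations from the group means correlated at -0.02 across genes, and with 2 samples per group this value cannot decide the question. With the replicate block, 0 of the 6 genes and 0 of the 83 pathway genes passed, the log2 difference of Fgfr4 was -0.31 with an adjusted p of 0.759 in limma, and 3 of all 10900 genes passed in place of 6. Without the filter 0 of 24969 genes passed in limma, 1508 of them having an unadjusted p under 0.05. The median standard error of 0.198 on the log2 scale and 2 samples per group limit what could be seen, and genes under 1 FPKM rest on under 41.1 reads per kilobase.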
